A study of Saccharomyces cerevisiae with 10 samples.

Results

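The RNA of a budding yeast strain that lacks both SET1 and SET5 (set1Δ set5Δ) was compared with the RNA of its wild type, gene by gene. The comparison takes every feature of the deposited table whose mean over the 5 strains measured is 1 FPKM or more, which is 6541 of 6663 features and leaves out 122. FPKM is a read count scaled to transcript length and to library size, and it was inferred to be the unit because the header gives none. Each feature is described by its level in both strains and by its ratio, log2((set1Δ set5Δ FPKM + 1) / (wild-type FPKM + 1)), so a ratio of 1 is a 2-fold higher level and a ratio of -1 a 2-fold lower one. The added 1 understates the difference of scarce transcripts. The question was which transcripts differ when both enzymes are missing, with genes near chromosome ends and retrotransposons of special interest to the study.

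The strains were set1Δ set5Δ and wild-type BY4741, and the set1Δ, set5Δ and SET5 Y402A strains, the last with a tyrosine of Set5 replaced by alanine, are given only as further values beside them. All are BY4741, a haploid laboratory strain of mating type a that carries deletions of HIS3, LEU2, MET17 and URA3, so every strain shares those losses. Cells grew at 30 °C in YPD, a rich glucose medium, and were collected in mid-log phase. The labels list 2 biological replicates per strain, 10 libraries in all, made from total RNA with a kit that does not mark strand, while the table holds 1 value per strain. Without values per library no difference could be tested against replicate error, and the depth behind the values is unknown.

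Set1 is the catalytic subunit of COMPASS, the complex that methylates lysine 4 of histone H3 around the starts of transcribed genes. Set5 is a SET-domain methyltransferase that acts on lysines in the tail of histone H4. In budding yeast, loss of Set1 is known for weakened silencing near telomeres and in the ribosomal DNA and for raised levels of certain normally scarce transcripts.

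The deleted genes were close to 0 in the strain that lacks them. SET1 stood at 0.0324 FPKM in set1Δ set5Δ, against 24.3 in the wild type, and SET5 at 0.0167 FPKM in set1Δ set5Δ, against 34.6 in the wild type. The 5 genes on each side of SET1 had a median ratio of -0.05, from -0.65 for NDT80 to 0.65 for ORC6, and those around SET5 had one of 0.02, from -0.30 for BAT1 to 0.42 for SCH9. Genes of mating type a were high in both strains, such as the pheromone receptor gene STE2 at 620.4 FPKM in set1Δ set5Δ and 750.4 in the wild type. Of the alpha-cell markers, the receptor gene STE3 stood at 5.36 FPKM in set1Δ set5Δ and 3.23 in the wild type, the agglutinin gene SAG1 at 25.4 in set1Δ set5Δ and 21.4 in the wild type, and the pheromone gene MF(ALPHA)2 at 27.3 in set1Δ set5Δ and 29.8 in the wild type. The other pheromone gene, MF(ALPHA)1, stood at 8.83 FPKM in set1Δ set5Δ and 1.19 in the wild type, so none of the 4 was absent. HIS3, deleted in this background, was at 132 FPKM in set1Δ set5Δ and 84.9 in the wild type, and what its reads come from was not tested. TEF1 and TEF2, near-identical genes of translation elongation factor 1A, were listed at 0 in set1Δ set5Δ, against 12059 and 12637 FPKM in the wild type, and an exact 0 in such a table can be a failed estimate.

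More features were higher than lower in the double deletion. In all, 185 of 6541 features (2.83%) stood at 2-fold or more above the wild type and 34 (0.52%) at 2-fold or more below it. After quantile normalization these counts were 122 and 56, and with each ratio taken relative to features of like abundance they were 126 and 44. At 1.5-fold the counts were 537 (8.21%) and 191 (2.92%). The median ratio was 0.01 and the quartiles were -0.19 and 0.22. Of the 219 features past 2-fold, 92 were under 10 FPKM in both strains, 35 were coding genes under 300 bp, 41 were absent from the annotation used, 17 were noncoding and 29 were listed at 0 in 1 of the strains, with overlaps between these classes. Coding genes of at least 300 bp, that had 10 FPKM or more in the higher strain and were above 0 in both, numbered 5153. Among them 52 (1.01%) were 2-fold or more above the wild type and 11 (0.213%) as far below it, SET1 and SET5 included. At 1.5-fold these counts were 259 (5.03%) and 116 (2.25%).

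The 52 longer coding genes were a mixed group in function, led by COS12, a gene of the subtelomeric COS family of membrane proteins that sort cargo to the vacuole. COS12 stood at 24.7 FPKM in set1Δ set5Δ, 7.53 in set1Δ, 7.45 in SET5 Y402A, 7.06 in set5Δ and 1.86 in the wild type, a ratio of 3.17. The double deletion was thus above all the other strains, and the wild type below all of them. YOR338W, a gene of unknown function, showed the same place of the double deletion, with 56.3 FPKM in set1Δ set5Δ, 37.0 in set1Δ, 13.7 in SET5 Y402A, 16.4 in set5Δ and 14.0 in the wild type (1.94). CDA1, which deacetylates spore-wall chitin, had 13.9 FPKM in set1Δ set5Δ, 13.8 in set1Δ, 0.798 in SET5 Y402A, 1.09 in set5Δ and 1.29 in the wild type (2.70). Here the strains with SET1 all lay near 1 FPKM and both strains without it near 14. The 52 genes were chosen for a high value in set1Δ set5Δ over that in the wild type, which in large part sets the order of the strains. Across them, set1Δ set5Δ held the highest of the 5 values in 43 and the wild type the lowest in 31. Their median was 27.8 FPKM in set1Δ set5Δ, 23.6 in set1Δ, 13.8 in SET5 Y402A, 11.8 in set5Δ and 10.3 in the wild type.

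Several of the 52 are enzymes or transporters of central and cofactor metabolism. MDH2, cytosolic malate dehydrogenase, stood at 203 FPKM in set1Δ set5Δ and 78.0 in the wild type (1.37), and PKP1, a kinase that inhibits pyruvate dehydrogenase, at 32.3 FPKM in set1Δ set5Δ and 12.2 in the wild type (1.34). YIA6, which carries NAD into mitochondria, stood at 19.7 FPKM in set1Δ set5Δ and 5.61 in the wild type (1.65). PHO89, a sodium-coupled phosphate transporter, was at 28 FPKM in set1Δ set5Δ and 10.9 in the wild type (1.28). Others act at the cell surface: AQR1, an exporter of organic acids and amino acids, stood at 205 FPKM in set1Δ set5Δ and 77.3 in the wild type (1.39), and YPS6, an aspartyl protease anchored at the cell surface, at 11.3 FPKM in set1Δ set5Δ and 3.51 in the wild type (1.45). All of these come from the 52 genes chosen for being at least 2-fold higher, so their direction follows from that choice.

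Regulators were also among the 52. MIG2, a repressor of glucose-repressed genes, stood at 179 FPKM in set1Δ set5Δ and 58.4 in the wild type (1.6). CLN3, the G1 cyclin that acts first at Start, stood at 80.0 FPKM in set1Δ set5Δ, 63.6 in set1Δ, 44.4 in SET5 Y402A, 40.7 in set5Δ and 32.5 in the wild type (1.27). CDC6, which loads the replicative helicase at origins, stood at 27.6 FPKM in set1Δ set5Δ and 9.65 in the wild type (1.43). HSP12, a small membrane-stabilising stress protein, had 127 FPKM in set1Δ set5Δ, 91.8 in set1Δ, 84.2 in SET5 Y402A, 70.6 in set5Δ and 47.0 in the wild type (1.42). For CLN3 and HSP12 every mutant value lay above that of the wild type, whereas CDC6 at 8.62 FPKM in set5Δ and 8.50 in SET5 Y402A lay slightly below it. The remaining highest 20 were MUP3 (2.44), FIT1 (2.03), BNA2 (1.98), YER084W (1.79), YNR064C (1.62), LOH1 (1.58), DIT1 (1.5), YGR079W (1.42) and PAU5 (1.38), some of which are described with their groups. Just inside the 2-fold line were ECM13, SAE2 and YOR062C (1.0 to 1.01), and just outside it ARG3, RRN11 and HLR1 (each 1.0 after rounding).

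**Figure D1:**
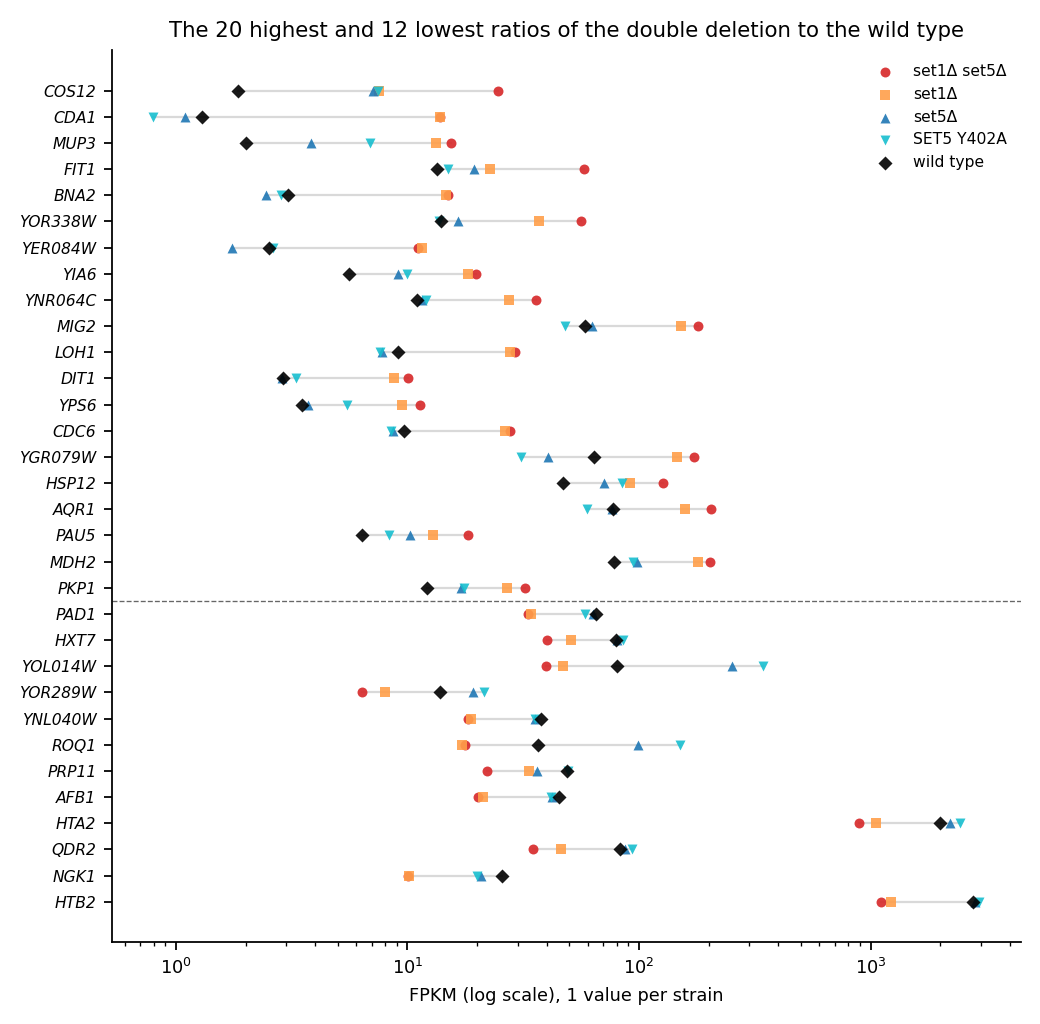
FPKM on a log axis in 5 strains, 1 point per strain, for the 20 genes with the highest and, below the dashed line, the 12 with the lowest ratio of set1Δ set5Δ to the wild type among longer coding genes. In the upper block the set1Δ set5Δ points lie to the right of the wild type, with COS12 at 24.7 FPKM in set1Δ set5Δ and 1.86 in the wild type at the top, and in the lower block to its left, with HTB2 at 1109 FPKM in set1Δ set5Δ and 2769 in the wild type at the bottom.

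Apart from SET1 and SET5, 9 longer coding genes were at least 2-fold lower. HTB2 and HTA2 encode histones H2B and H2A and are described below. QDR2, an exporter of drugs and monovalent cations, stood at 35 FPKM in set1Δ set5Δ, 45.8 in set1Δ, 93.5 in SET5 Y402A, 87.3 in set5Δ and 83.0 in the wild type (-1.22). NGK1, an N-acetylglucosamine kinase, was at 10.1 FPKM in set1Δ set5Δ and 25.6 in the wild type (-1.26). AFB1, annotated as a blocker of a-factor that is specific to alpha cells, was at 20.1 FPKM in set1Δ set5Δ and 45 in the wild type (-1.13). These 3 genes come from those chosen for being at least 2-fold lower, so their direction follows from that choice. ROQ1, a cofactor that redirects the ubiquitin ligase Ubr1, stood at 17.8 FPKM in set1Δ set5Δ, 17.2 in set1Δ and 36.8 in the wild type (-1.01), while it stood at 98.9 in set5Δ and 151 in SET5 Y402A. YOL014W, of unknown function, had a similar pattern, with 39.8 FPKM in set1Δ set5Δ, 47.1 in set1Δ, 343 in SET5 Y402A, 252 in set5Δ and 80.0 in the wild type (-0.99). Both genes were thus below the wild type in the strains without SET1 and above it in the strains with altered SET5 alone.

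PRP11, a subunit of the splicing factor SF3a, and SIR2, the histone deacetylase of silent chromatin, are neighbours on chromosome IV and were both lower. PRP11 stood at 22.1 FPKM in set1Δ set5Δ, 33.4 in set1Δ, 49.4 in SET5 Y402A, 36.1 in set5Δ and 49 in the wild type (-1.11). SIR2 stood at 18.9 FPKM in set1Δ set5Δ, 22.4 in set1Δ, 27.3 in SET5 Y402A, 16.2 in set5Δ and 31.4 in the wild type (-0.70). The feature YDL041W, whose systematic name places it next to SIR2 and which the annotation used does not hold, was at 23.5 FPKM in set1Δ set5Δ and 69.5 in the wild type (-1.53). In all 3 the 3 deletion strains lay below the wild type. Whether YDL041W overlaps SIR2 could not be seen from the annotation used. Without strand, reads of overlapping features cannot be told apart, so YDL041W may not be an observation separate from SIR2. The list of silencing and telomere factors, SIR2 included, had 11 of 21 genes above 0 and a median of 0.03. EST3, a telomerase subunit, stood at 26.6 FPKM in set1Δ set5Δ and 43.7 in the wild type (-0.70), TEN1, which caps telomeres, had a ratio of -0.45, and SIR3, which spreads along silent chromatin, one of 0.45.

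The genes of the histones, among them H3, on which Set1 acts, and H4, on which Set5 acts, were lower together. All 10 were below the wild type, while 49.3% of all features were, and 2 were at least 2-fold lower. HTB2 stood at 1109 FPKM in set1Δ set5Δ, 1224 in set1Δ, 2955 in SET5 Y402A, 2839 in set5Δ and 2769 in the wild type (-1.32). HTA2, its divergently transcribed partner, stood at 891 FPKM in set1Δ set5Δ, 1056 in set1Δ, 2431 in SET5 Y402A, 2194 in set5Δ and 1998 in the wild type (-1.16). In both, the strains without SET1 lay far below the other strains. The genes of the other pair, HTA1 and HTB1, differed less, at 1918 and 2759 FPKM in set1Δ set5Δ, against 2938 and 4055 in the wild type (-0.61 and -0.56). The histone H4 genes HHF1 and HHF2 had ratios of -0.84 and -0.89 and the histone H3 genes HHT1 and HHT2 ratios of -0.69 and -0.77. The linker histone gene HHO1 (-0.44) and HTZ1, the H2A.Z variant gene (-0.27), which is made outside S phase, had the smallest differences. The list had a median of -0.73, and -0.49 both with quantile-normalized values and relative to features of like abundance. In RNA from a whole culture, fewer cells in the phase that makes a transcript and less of it per cell cannot be told apart. Histone chaperones and regulators of the histone genes stood at a median of -0.05 over 17 genes.

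**Figure D2:**
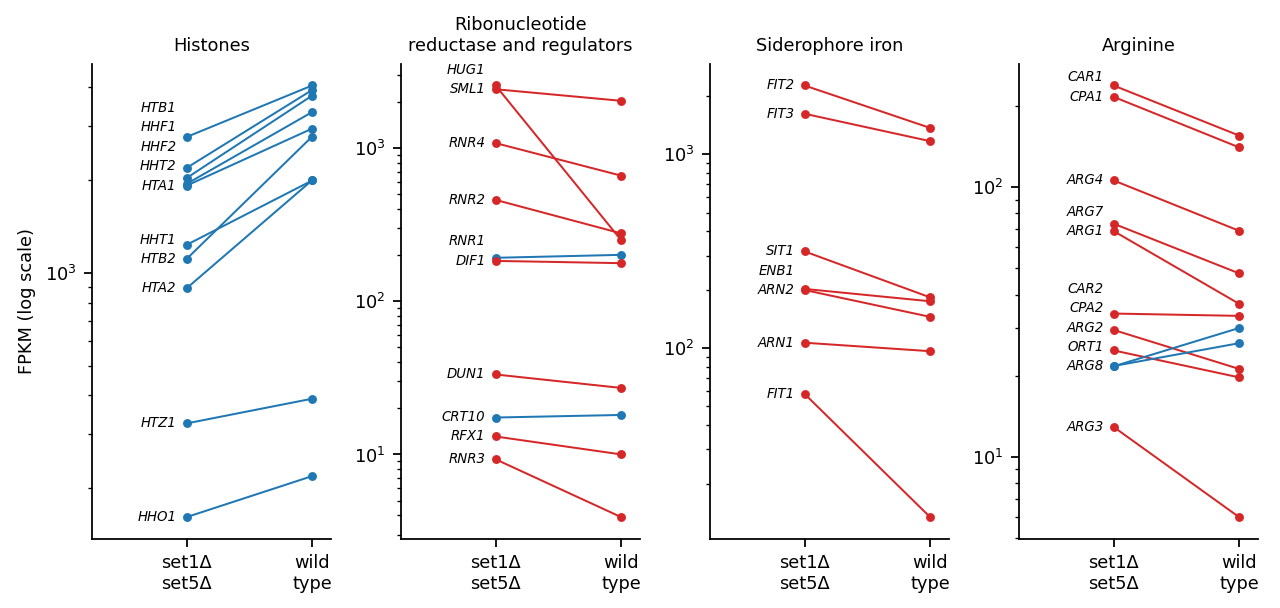
FPKM on log axes in set1Δ set5Δ (left) and in the wild type (right) for the members of 4 gene lists, 1 line per gene, red where set1Δ set5Δ is higher and blue where it is lower. All 10 histone genes are lower in set1Δ set5Δ and all 7 siderophore genes higher, and HUG1, at 2554 FPKM in set1Δ set5Δ and 250.1 in the wild type, has the steepest line of the ribonucleotide reductase list.

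Most genes of ribonucleotide reductase and its regulators, inhibitors included, were higher in the double deletion. HUG1, a small inhibitor of the enzyme that is induced by DNA damage, had by far the largest difference among them. HUG1 stood at 2554 FPKM in set1Δ set5Δ, 1573 in set1Δ, 253 in SET5 Y402A, 279 in set5Δ and 250.1 in the wild type (3.35). It has under 300 bp of coding sequence, a length at which FPKM is less certain. Its neighbour SML1, another inhibitor of the enzyme, stood at 2414 FPKM in set1Δ set5Δ and 2029 in the wild type (0.25). RNR2 and RNR4, the small subunits, stood at 458 and 1075 FPKM in set1Δ set5Δ, against 277 and 659 in the wild type (0.72 and 0.70). RNR3, the damage-induced large subunit, was scarce, with 9.30 FPKM in set1Δ set5Δ and 3.90 in the wild type (1.07), and the constitutive large subunit RNR1 stood at 192 FPKM in set1Δ set5Δ and 201 in the wild type (-0.06). Of the 10 genes, 8 were above 0 (80%, against 50.6% of all features) and 2 at least 2-fold higher (20%, against 2.83%). Their median was 0.32, or 0.36 with quantile-normalized values. Among the 24 genes of the DNA damage response, HUG1 included, 17 were above 0 (70.8%, against 50.6% of all features). Of the 24, 2 were at least 2-fold higher (8.33%, against 2.83% of all features). The median was 0.17, but 0.01 with quantile-normalized values and 0.03 relative to features of like abundance. The ratios ran from -0.22 for RAD23 to 3.35 for HUG1, with RAD59 at 0.52.

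The genes that capture iron bound to siderophores were higher, all 7 of them, where 50.6% of all features were above 0. The mannoproteins Fit1, Fit2 and Fit3 hold siderophores in the cell wall and Arn1, Arn2, Sit1 and Enb1 carry them across membranes. FIT1 stood at 58.0 FPKM in set1Δ set5Δ, 22.7 in set1Δ, 15 in SET5 Y402A, 19.4 in set5Δ and 13.4 in the wild type (2.03). It shares sequence with other genes, so its level is less certain. FIT2 stood at 2266 FPKM in set1Δ set5Δ, 872 in set1Δ, 1369 in SET5 Y402A, 1700.2 in set5Δ and 1368 in the wild type (0.73). SIT1 stood at 315 FPKM in set1Δ set5Δ, 222 in set1Δ, 150.0 in SET5 Y402A, 172 in set5Δ and 183 in the wild type (0.78). The double deletion held the highest of the 5 values in these 3 genes, while for FIT2 the set1Δ strain held the lowest. FIT3 (0.47), ARN2 (0.46), ENB1 (0.21) and ARN1 (0.14) had smaller ratios. The list's median was 0.47, and it was 0.70 with quantile-normalized values.

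Iron genes are controlled by Aft1, an activator that binds promoters when iron is short. Its site, searched here as TGCACCC on both strands from 250 bases before to 50 after each coding start, was found at 5 of the 7 siderophore genes and in 78 of 6020 such windows of the genome (1.30%). The stretches that hold it are shown because these genes were higher together. They were read from the RefSeq genome of assembly R64 by locus tag, 5′ to 3′ on the gene's own strand, with the motif or its reverse complement in capitals and up to 20 flanking bases. The first base lies 202 bases before the coding start for FIT1 (chromosome IV), 250 for FIT2 (XV), 204 for FIT3 (XV), 208 for SIT1 (V) and 213 for ENB1 (XV).
FIT1: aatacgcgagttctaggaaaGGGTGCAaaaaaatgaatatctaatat
FIT2: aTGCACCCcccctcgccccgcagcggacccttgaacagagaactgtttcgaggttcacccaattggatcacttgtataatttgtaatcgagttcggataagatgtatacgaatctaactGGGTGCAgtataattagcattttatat
FIT3: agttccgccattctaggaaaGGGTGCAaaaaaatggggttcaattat
SIT1: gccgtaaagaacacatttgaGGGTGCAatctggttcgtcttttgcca
ENB1: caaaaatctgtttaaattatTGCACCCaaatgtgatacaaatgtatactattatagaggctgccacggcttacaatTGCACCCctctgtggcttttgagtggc
FIT1 and FIT3 share a run of 25 bases around the site, while every other pair shares 9 or fewer in a row. FIT2 and ENB1 hold the site 2 times each. A match is a description of the letters and does not show binding. The windows of ARN1 and ARN2 do not hold these letters.

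The reductive iron uptake and iron-sparing genes differed less, although 9 of 24 (37.5%) hold the same letters in their windows. Their median ratio was 0.13, with 16 of 24 above 0 (66.7%, against 50.6% of all features). Of the 24, 1 was at least 2-fold higher (4.17%, against 2.83% of all features). That gene was HMX1, a heme oxygenase that frees iron from heme, which stood at 43.4 FPKM in set1Δ set5Δ, 26.3 in set1Δ, 16.5 in SET5 Y402A, 15.9 in set5Δ and 17.2 in the wild type (1.28). CCC2, which supplies copper to the ferroxidase, stood at 30.1 FPKM in set1Δ set5Δ and 18.5 in the wild type (0.67), and TIS11, which promotes decay of iron-using transcripts, at 104 FPKM in set1Δ set5Δ and 73.1 in the wild type (0.51). The ferroxidase FET3 and its permease FTR1 were near the wild type, at 602 and 473 FPKM in set1Δ set5Δ, against 559.8 and 437 in the wild type (0.10 and 0.12). AFT1 itself had a ratio of 0.34. Zinc and copper uptake genes had a median of 0.21 over 14 genes, from -0.71 for FRE7 to 0.76 for the zinc transporter gene ZRT1, which stood at 136 FPKM in set1Δ set5Δ and 80.2 in the wild type.

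Amino acid genes did not differ as a block. The arginine genes had a median of 0.60, with 9 of 11 above 0 (81.8%, against 50.6% of all features) and none at least 2-fold higher. ARG1, argininosuccinate synthetase, stood at 68.8 FPKM in set1Δ set5Δ, 61.5 in set1Δ, 33.2 in SET5 Y402A, 35.2 in set5Δ and 37.0 in the wild type (0.88). ARG3, ornithine carbamoyltransferase, stood at 12.9 FPKM in set1Δ set5Δ, 12.1 in set1Δ, 4.57 in SET5 Y402A, 5.09 in set5Δ and 5.99 in the wild type. In both the 2 strains without SET1 lay above the others, which lay close together. CPA1, of carbamoyl phosphate synthetase, stood at 216 FPKM in set1Δ set5Δ and 141 in the wild type (0.62), and CAR1, which breaks arginine down, at 238 FPKM in set1Δ set5Δ and 155 in the wild type (0.61). ARG8, the mitochondrial acetylornithine aminotransferase, was lower, at 21.7 FPKM in set1Δ set5Δ and 30.1 in the wild type (-0.45). Branched-chain synthesis had a median of -0.20 with 9 of 11 genes below 0, histidine synthesis one of 0.06, lysine synthesis one of 0.01 and aromatic synthesis one of -0.02. The site of Gcn4, the activator shared by these pathways (TGACTCA or its reverse complement, same window), was in 4 of 11 arginine, 5 of 11 branched-chain and 4 of 6 histidine genes, against 164 of 6020 windows (2.72%). The 4 arginine genes with it had a median ratio of 0.17 and the 7 without it one of 0.61.

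Genes of amino acid uptake and nitrogen use held single members far from their list. MUP3, a low-affinity methionine permease, stood at 15.4 FPKM in set1Δ set5Δ, 13.3 in set1Δ, 6.90 in SET5 Y402A, 3.83 in set5Δ and 2.01 in the wild type (2.44), whereas the 23 methionine, cysteine and sulfate genes had a median of 0.08. The wild type was lowest, and both SET5 strains lay between it and the strains without SET1. MUP1, the high-affinity permease, stood at 158 FPKM in set1Δ set5Δ and 93.4 in the wild type (0.75), and GAP1, the general amino acid permease, at 23.3 FPKM in set1Δ set5Δ and 12 in the wild type (0.91). DIP5, a permease for dicarboxylic amino acids, was lower, at 70.5 FPKM in set1Δ set5Δ and 109 in the wild type (-0.63), and the permease list stood at -0.01. Of 21 genes under nitrogen catabolite repression 19 were above 0 (90.5%, against 50.6% of all features), with a median of 0.27. Of the 21, 2 were at least 2-fold higher (9.52%, against 2.83% of all features). Those 2, DAL80 and DAL1, were under 10 FPKM in both strains, and the median was 0.08 with quantile-normalized values.

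The NAD genes did not all differ in the same direction. BNA2, which opens the kynurenine route from tryptophan, stood at 15 FPKM in set1Δ set5Δ, 14.7 in set1Δ, 2.85 in SET5 Y402A, 2.45 in set5Δ and 3.05 in the wild type (1.98). TNA1, the nicotinic acid permease, stood at 468 FPKM in set1Δ set5Δ, 391 in set1Δ, 203 in SET5 Y402A, 214 in set5Δ and 214 in the wild type (1.13). BNA4, a later enzyme of the route, stood at 36.9 FPKM in set1Δ set5Δ and 22 in the wild type (0.72). These were the only members above 0, and in each the strains with SET1 lay together. The other 10 of 13 were below 0, from BNA6 at 62.4 FPKM in set1Δ set5Δ and 98.7 in the wild type (-0.65) to NRK1 (-0.02), and the median was -0.35. It was -0.34 with quantile-normalized values. BNA2 overlaps another annotated gene. Among the thiamine, pyridoxine and biotin genes 19 of 27 were above 0 (70.4%, against 50.6% of all features), with a median of 0.43, or 0.20 with quantile-normalized values. Of the 27, 4 were at least 2-fold higher (14.8%, against 2.83% of all features). They were the thiamine genes THI4, at 12.5 FPKM in set1Δ set5Δ and 5.40 in the wild type (1.08), and the scarce, near-identical THI5, THI12 and THI13. Vitamin H transporter gene VHT1 stood at 54.7 FPKM in set1Δ set5Δ and 32.6 in the wild type (0.73).

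Carbon genes were higher for gluconeogenesis and lower for glycolysis. Of 14 genes of gluconeogenesis and the glyoxylate cycle 12 were above 0 (85.7%), with a median of 0.48, led by MDH2. Of all features 50.6% were above 0, and of those under 10 FPKM in both strains 75%. Most of the 14 genes were scarce. PCK1, the first dedicated enzyme of gluconeogenesis, stood at 7.47 FPKM in set1Δ set5Δ and 5.19 in the wild type, while FBP1, fructose bisphosphatase, stood at 5.84 FPKM in set1Δ set5Δ and 8.03 in the wild type. Of 21 genes of glycolysis and fermentation 18 were below 0, where 49.3% of all features were, with a median of -0.29. Among the 18 were TDH2, a glyceraldehyde-3-phosphate dehydrogenase, at 4180.4 FPKM in set1Δ set5Δ and 6344 in the wild type (-0.60), and PGK1 (-0.58). PDC6, a minor pyruvate decarboxylase, was the exception past 2-fold, with 5.83 FPKM in set1Δ set5Δ and 1.04 in the wild type (1.74). With quantile-normalized values these medians were 0.08 and -0.04. Hexose transporters differed in sign. HXT7 stood at 39.98 FPKM in set1Δ set5Δ and 79.5 in the wild type (-0.97), though it is nearly identical to HXT6 (-0.89), and HXT2 stood at 562 FPKM in set1Δ set5Δ and 877 in the wild type (-0.64). HXT9 (1.03) and HXT10 (1.29) were higher but under 10 FPKM in both strains. HAP4, the activator of respiratory genes, stood at 27.5 FPKM in set1Δ set5Δ, 27.3 in set1Δ, 115 in SET5 Y402A, 89.9 in set5Δ and 47.5 in the wild type (-0.77), and the respiratory chain list had a median of 0.00 and the tricarboxylic acid cycle one of 0.04.

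Protein synthesis and folding genes were lower by small amounts. Cytosolic ribosomal protein genes stood at a median of -0.30, 133 of 135 of them below 0, and those with and without introns were alike (-0.31 over 89 genes and -0.30 over 46). Translation factors stood at -0.17 and mitochondrial ribosomal proteins at -0.18. Aminoacyl-tRNA synthetases stood at -0.18 with 17 of 18 below 0, where 49.3% of all features were. Ribosome biogenesis genes stood at 0.05 with 61 of 100 above 0. Of 25 chaperone genes 20 were below 0 with a median of -0.32. HCH1, a cofactor of Hsp90, stood at 259 FPKM in set1Δ set5Δ, 279 in set1Δ, 505 in SET5 Y402A, 523 in set5Δ and 499 in the wild type (-0.94). SIS1, an Hsp40, stood at 159 FPKM in set1Δ set5Δ and 258 in the wild type (-0.70), FES1, a nucleotide exchange factor of Hsp70, at 109 FPKM in set1Δ set5Δ and 177 in the wild type (-0.69), and SSA2, a constitutive Hsp70, at 1321 FPKM in set1Δ set5Δ and 2038 in the wild type (-0.62), the last with shared sequence. HSP82, the inducible Hsp90, stood near the wild type, at 118 FPKM in set1Δ set5Δ and 113 in the wild type (0.07). Proteasome genes had a median of -0.05.

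These abundant groups lie where ratios were low in general: the more abundant the features, the lower the ratio mostly was. When the features were cut into 10 equal bins by mean FPKM, the median ratio was 0.34 in the lowest bin (up to 9.03 FPKM) and -0.24 in the highest (329 FPKM and more), with 100 of the 655 features of the lowest bin at least 2-fold higher. The highest bin without ribosomal protein genes had a median of -0.19. Taking abundance from the 3 strains that are not compared gave 0.35 and -0.24. The sums of FPKM were 2056298 in set1Δ set5Δ and 2368910 in the wild type. Length moved with the ratio as well, from -0.10 for coding genes of 300 to 600 bp to 0.08 for those of 2400 bp and more. Relative to features of like abundance, the median of the ribosomal proteins was -0.06, that of glycolysis -0.05, that of the chaperones -0.11 and that of the NAD genes -0.30. On the same footing translation factors and aminoacyl-tRNA synthetases each stood at -0.01 and mitochondrial ribosomal proteins at -0.12. The part of abundance in these list values was not tested.

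**Figure D3:**
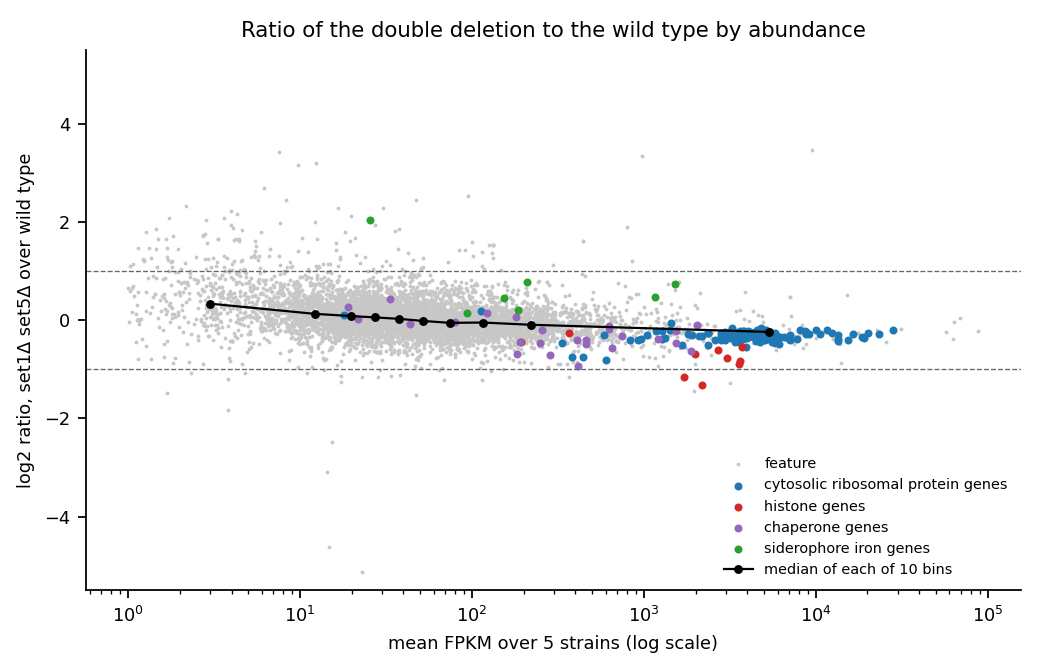
Ratio of set1Δ set5Δ to the wild type against mean FPKM over 5 strains (log axis) for the 6505 features above 0 in both strains, with 4 gene lists in colour, the 2-fold lines dashed and the median of each of 10 bins of abundance as a black line. That line goes down, with 0.34 at the scarce end and -0.24 at the abundant end, where the ribosomal protein genes lie along it and most histone genes below it.

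All 12 G2/M genes were above 0, as were 50.6% of all features, and lay between 0.26 and 0.56, with a median of 0.41 and none past 2-fold. KIN3, a mitotic kinase, stood at 36.1 FPKM in set1Δ set5Δ, 35.5 in set1Δ, 22.4 in SET5 Y402A, 20.3 in set5Δ and 24.1 in the wild type (0.56), and SPO12, a regulator of mitotic exit, at 234 FPKM in set1Δ set5Δ, 219 in set1Δ, 158 in SET5 Y402A, 148 in set5Δ and 160.4 in the wild type (0.54). In both genes the 2 strains without SET1 lay together above the other 3. CDC20, the activator of the anaphase-promoting complex, had a similar ratio (0.49). G1/S genes stood at 0.02, replication licensing genes at 0.18, with 10 of 14 above 0, and M/G1 genes at -0.09. Pheromone response genes stood at -0.05, and SST2, which damps the pheromone signal, was at 58.8 FPKM in set1Δ set5Δ and 95.9 in the wild type (-0.70).

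Most genes of sporulation, which are normally silent in growing haploids, were scarce. Among 37 middle and late genes 30 were above 0 and 7 at least 2-fold higher, with a median of 0.47. LOH1, of the outer spore wall, stood at 29.1 FPKM in set1Δ set5Δ, 27.6 in set1Δ, 7.63 in SET5 Y402A, 7.77 in set5Δ and 9.06 in the wild type (1.58). DIT1, which makes the dityrosine of the spore wall, stood at 10.01 FPKM in set1Δ set5Δ, 8.77 in set1Δ, 3.31 in SET5 Y402A, 2.87 in set5Δ and 2.89 in the wild type (1.5). The strains without SET1 were again apart from the rest. SPR6 was lower, at 47.8 FPKM in set1Δ set5Δ and 78.6 in the wild type (-0.71). Over the 12 members whose mean was 10 FPKM or more, LOH1 and SPR6 among them, the median was -0.04, and with quantile-normalized values that of the whole list was 0.06. Early meiotic genes had a median of 0.11, but -0.22 with quantile-normalized values and -0.18 relative to features of like abundance. Over the 3 early genes whose mean was 10 FPKM or more it was -0.25. Among all features under 10 FPKM in both strains, 477 of 636 (75%) were above 0 and 84 (13.2%) at least 2-fold higher, with a median of 0.27, so the share of sporulation genes above 0 (81.1%) lies near that of scarce features in general.

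Autophagy genes were higher in 22 of 28 cases (78.6%) with a median of 0.45, none of them past 2-fold. Of all features 50.6% were above 0, and of those under 10 FPKM in both strains 75%. ATG33, of mitochondrial turnover, stood at 82.0 FPKM in set1Δ set5Δ, 73.7 in set1Δ, 42.6 in SET5 Y402A, 45.9 in set5Δ and 42.9 in the wild type (0.92). ATG7, the activating enzyme of both autophagic conjugation systems, stood at 16.0 FPKM in set1Δ set5Δ, 14.8 in set1Δ, 8.60 in SET5 Y402A, 7.90 in set5Δ and 8.17 in the wild type (0.89). In both the strains with SET1 lay close together. ATG8, the ubiquitin-like protein of the autophagosome, had another order, at 55.1 FPKM in set1Δ set5Δ, 47.8 in set1Δ, 79.3 in SET5 Y402A, 67.7 in set5Δ and 38.4 in the wild type (0.51). ATG27 (-0.55) and ATG5 (-0.42) were lower. The list's median was 0.28 with quantile-normalized values and 0.26 relative to features of like abundance. The vacuolar proton pump stood at -0.16, but at 0.02 relative to features of like abundance.

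Ratios were higher toward chromosome ends. All 26 measured genes that come first from an end were above 0, as were 50.6% of all features, with a median of 0.31. Of the 26, 4 were at least 2-fold higher (15.4%, against 2.83% of all features). Among these 4, YFR057W and YCR108C were listed at 0 in the wild type. Genes 2 to 5 had a median of 0.30, genes 6 to 10 one of 0.14, genes 11 to 20 one of 0.04 and those from 41 on one of -0.01. Near-identical copies are common among these genes, and most are scarce. Among genes of which at least 95% of 50-base sequences occur once in the genome, the median was 0.07 over 36 genes at places 2 to 5 and 0.07 over 122 at places 6 to 10. With at least 10 FPKM as well, these were -0.01 and 0.03, close to the value of -0.02 farther in.

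**Figure D4:**
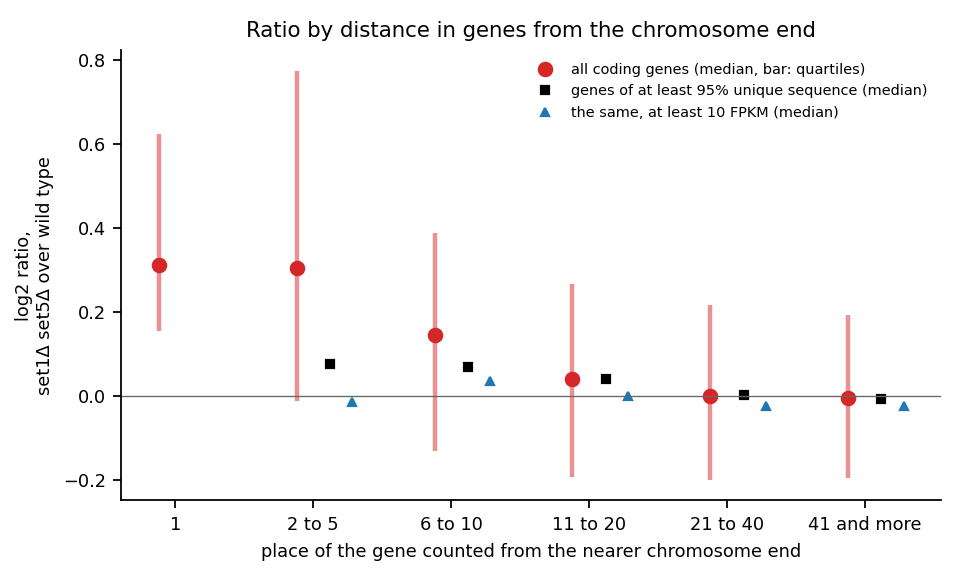
Ratio of set1Δ set5Δ to the wild type by the place of a coding gene counted from the nearer chromosome end. Red points are medians of all measured genes, with bars for the quartiles. Black squares are medians of genes of unique sequence and blue triangles medians of those that also have at least 10 FPKM. The red medians are 0.31 at the first place and -0.01 from place 41 on, and the blue triangles lie near 0. Squares and triangles are not drawn at the first place, where only 3 and 1 genes qualify.

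The 3 unique genes at the first place were all past 2-fold, YFR057W against a value listed at 0 in the wild type. COS12 is the outermost gene of the left end of chromosome VII by annotated order. YFR057W, of unknown function at an end of chromosome VI, stood at 6.57 FPKM in set1Δ set5Δ, 0.986 in set1Δ and 0.150 in SET5 Y402A, and was listed at 0 in set5Δ and in the wild type. YIR042C, of unknown function at an end of chromosome IX, stood at 15.5 FPKM in set1Δ set5Δ, 13.6 in set1Δ, 15.8 in SET5 Y402A, 11.1 in set5Δ and 7.02 in the wild type (1.04). For COS12 and YFR057W the double deletion was well above each other strain, while for YIR042C SET5 Y402A had nearly the same level. Near COS12, YGL262W stood at 5.49 FPKM in set1Δ set5Δ and 0.302 in the wild type (2.32), and YGL258W-A, of under 300 bp, at 26.2 FPKM in set1Δ set5Δ and 1.96 in the wild type (3.20). The other 10 COS genes ranged from -0.61 for COS9 to 0.48 for COS1, and the COS list had a median of 0.06. Not all end genes were higher: PAD1 and FDC1, adjacent genes of phenylacrylic acid decarboxylation near an end of chromosome IV, stood at 33.1 and 32.9 FPKM in set1Δ set5Δ, against 65.5 and 57.7 in the wild type (-0.96 and -0.79).

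Several families with repeated members, some of them at chromosome ends, had medians above 0. Of 17 seripauperin genes 14 were above 0 (82.4%) and 5 at least 2-fold higher (29.4%). Of all features 50.6% and 2.83% were, and of those under 10 FPKM in both strains 75% and 13.2%. Many seripauperin genes were scarce. Their median ratio was 0.68, or 0.44 with quantile-normalized values. The ratios ran from -0.52 for PAU7 to 2.08 for PAU4, which stood at 7.43 FPKM in set1Δ set5Δ and 0.994 in the wild type. PAU7 was the only member of unique sequence. All 6 anaerobic mannoprotein genes were above 0, with a median of 0.59, or 0.25 with quantile-normalized values. They were led by TIR3, a gene of unique sequence away from the ends, at 79.7 FPKM in set1Δ set5Δ and 37.3 in the wild type (1.07). The 8 YRF1 helicase genes of the telomeric repeats, whose sequences are nearly the same, had a median of 0.27. Flocculin genes had a median of 0.15, but one of -0.09 with quantile-normalized values and -0.07 relative to features of like abundance. FLO5 (0.05) and FLO8 (0.02), at more than 10 FPKM, lay near 0, while the scarcer FLO11 stood at 7.10 FPKM in set1Δ set5Δ and 3.18 in the wild type (0.96) and FLO10 at 8.84 FPKM in set1Δ set5Δ and 4.02 in the wild type (0.97). Ty open reading frames, the genes of retrotransposons, were above 0 in 46 of 49 cases (93.9%, against 50.6% of all features). Their ratios lay between -0.62 and 0.71 with a median of 0.46. They lay close together, with quartiles of 0.37 and 0.53, and none was past 2-fold. None of the 49 was of unique sequence, so their values are less certain and cannot be counted as separate observations. Ribosomal RNA features had a median of 0.92 over 12, of which the 6 past 2-fold were copies of the 5S gene, 4 of them with the same values.

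Lists of chromatin enzyme genes had medians close to 0, with single members away from it. The 7 remaining COMPASS subunits lay between -0.25 for SDC1 and 0.16 for SHG1 with a median of -0.01. JHD2, the demethylase that reverses the mark of Set1, stood at 11.6 FPKM in set1Δ set5Δ, 10.6 in set1Δ, 6.42 in SET5 Y402A, 7.16 in set5Δ and 7.86 in the wild type (0.51). SET6, of the same domain family as Set5, stood at 18.9 FPKM in set1Δ set5Δ and 11.8 in the wild type (0.63), but it overlaps ATG29, and without strand their reads cannot be told apart. The 11 other histone methyltransferase and demethylase genes, SET6, JHD2 and RPH1 (0.45) among them, had a median of 0.10 with 9 above 0. HST4, a histone deacetylase of the Sir2 family, stood at 18.7 FPKM in set1Δ set5Δ, 18.4 in set1Δ, 8.47 in SET5 Y402A, 8.00 in set5Δ and 9.43 in the wild type (0.92), with both strains without SET1 above the rest. IES5, of the INO80 remodelling complex, had a ratio of 0.56. Acetyltransferase complexes had a median of -0.06 over 26 genes, deacetylase complexes one of 0.05 over 29 and remodelling complexes one of -0.03 over 39.

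**Figure D5:**
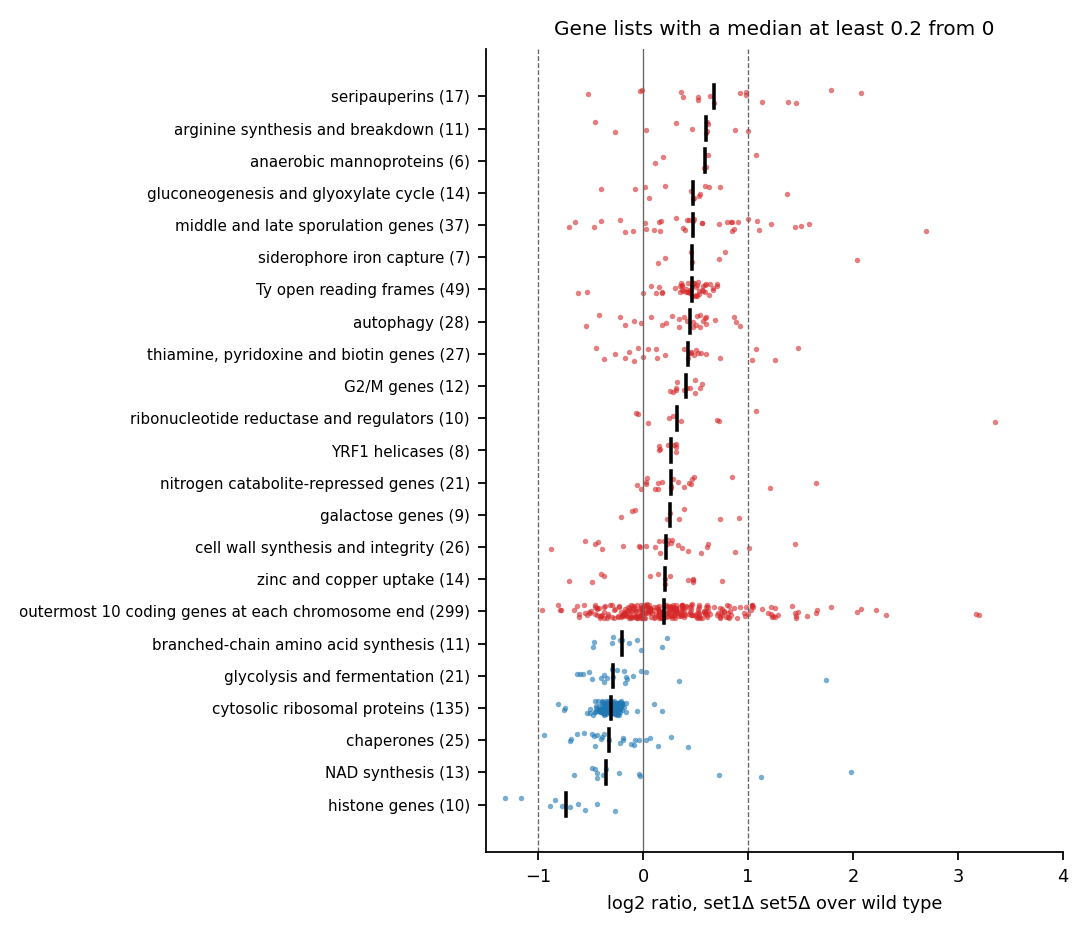
Ratios of set1Δ set5Δ to the wild type for the members above 0 in both strains of the 23 gene lists whose median is at least 0.2 from 0, 1 point per gene, with the number of measured members in brackets, the median as a black bar and the 2-fold lines dashed. Seripauperins (0.68) are at the top and histone genes (-0.73) at the bottom, and single members such as HUG1 (3.35), CDA1 (2.70) and BNA2 (1.98) lie far from their lists.

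Of 70 lists, 17 had a median of at least 0.2, 6 one of -0.2 or below, and 47 lay between. The cell wall list (0.21) joined genes that were higher, such as GSC2, the stress-induced glucan synthase, at 39.3 FPKM in set1Δ set5Δ and 19.0 in the wild type (1.01), with the abundant mannoprotein gene CWP2, at 9351 FPKM in set1Δ set5Δ and 17222 in the wild type (-0.88). The galactose list had a median of 0.26 on low levels, with GAL1 at 10.1 FPKM in set1Δ set5Δ and 7.42 in the wild type (0.39). Among general stress genes the median was 0.13 over 43, with DDR2 at 170.5 FPKM in set1Δ set5Δ and 82.1 in the wild type (1.05) and DDR48 at 128 FPKM in set1Δ set5Δ and 234 in the wild type (-0.87). Phosphate genes other than PHO89 ranged from -0.54 for VTC2 to 0.58 for PHO11, and pyrimidine genes from -0.96 for FUR1, uracil phosphoribosyltransferase, at 179 FPKM in set1Δ set5Δ and 349.5 in the wild type, to 0.53 for the uracil permease gene FUR4. Ergosterol genes had a median of -0.15 and oxidative stress genes one of -0.08, but 0.04 and 0.05 relative to features of like abundance. Trehalose and glycogen genes stood at 0.20, splicing factors at 0.02, nuclear pore genes at -0.05 and nuclear exosome and termination genes at -0.07.

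Short, noncoding and unlisted features had some of the most extreme values, and these are less certain. SNR18, a small nucleolar RNA that lies within EFB1, stood at 16354 FPKM in set1Δ set5Δ, 14234 in set1Δ, 8224 in SET5 Y402A, 7387 in set5Δ and 1483 in the wild type, while EFB1 stood at 3181 FPKM in set1Δ set5Δ and 3682 in the wild type. The wild type thus had the lowest SNR18 value and no such difference in the gene around it. SNR51 stood at 1812 FPKM in set1Δ set5Δ and 483 in the wild type (1.91), and the 48 small nucleolar RNAs of the annotation had a median of -0.16. SRG1, the noncoding RNA read through the promoter of the serine gene SER3, stood at 85.3 FPKM in set1Δ set5Δ and 175 in the wild type (-1.03), and SER3 at 46.4 FPKM in set1Δ set5Δ and 53.1 in the wild type (-0.19). COX26, a small subunit associated with cytochrome c oxidase, stood at 46.5 FPKM in set1Δ set5Δ, 65.6 in set1Δ, 12 in SET5 Y402A, 19.9 in set5Δ and 8.74 in the wild type (2.29). Of the measured features, 6 were listed at 0 in set1Δ set5Δ alone of the pair and 23 in the wild type alone. Among the 23 was DPA10, next to CDA1, with 22 FPKM in set1Δ set5Δ, 16.6 in set1Δ, 0.508 in SET5 Y402A and 1.22 in set5Δ, an order like that of its neighbour. ANS1 was listed at 0 in the wild type and stood at 4.39 FPKM in set1Δ set5Δ and 4.47 in set1Δ.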

How the data were processed

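RNA from 5 strains was sequenced in 10 libraries, 2 per strain, per the labels. The deposited table holds 1 value per strain for 6663 features with no unit in its header. They were read as FPKM computed by the authors, since they are decimals with column sums above what CPM or TPM allow. Per the submitters' processing notes the tools included R 2.15.1, TopHat2 2.0.5, Cufflinks 2.0.2 with Cuffdiff, and FastQC. The genome build, the annotation, the scaling between strains and how replicates were combined are items not given in the sources used here. In all, 0 columns were left unused.

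Ratios were computed with Python 3.11.15, pandas 2.3.3 and NumPy 2.4.6 and drawn with matplotlib 3.10.9, using a pseudocount of 1 FPKM and features whose mean was 1 FPKM or more. Gene names, order, length, introns and the share of 50-base sequences that occur once came from the RefSeq annotation of assembly R64, in which 5934 features were found under their locus tag and 82 under their symbol, while 647 had no match. The authors may have used another annotation, and coordinates are therefore left out. Named genes were SET1, SET5, the 20 highest and 12 lowest ratios among coding genes of at least 300 bp and 10 FPKM, the 4 largest ratios of each list, and a few control genes; others were chosen after seeing their values. The members and the 70 lists were chosen with earlier results of these data known. A list counts as shifted when its median is at least 0.2 from 0, a descriptive limit. Counting was checked on simulated data. Since there is 1 value per strain, the planned tests across libraries were not run. Overlapping genes, and genes such as FIT1, PAU5, YPS6, SSA2, HXT6, HXT7 and the histone H3 and H4 genes that share sequence with a copy, have less certain values. A few results on single genes are not reported here.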

Additional observations from a re-analysis of the deposited data

How the results depend on the processing

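No paired analysis was possible because the table holds 1 value per strain, and leaving out replicates was not run for the same reason. The 185 features at least 2-fold higher became 84 with a pseudocount of 5, 83 among features of at least 10 FPKM, 122 with quantile normalization, 112 among coding genes of at least 300 bp, 110 among coding genes at least 95% unique and 537 at 1.5-fold. The 34 at least 2-fold lower became 19 with a pseudocount of 5, 56 with quantile normalization, 14 among coding genes of at least 300 bp, 21 among those at least 95% unique, 18 with equal sums of FPKM and 191 at 1.5-fold. Fewer features were tested in the restricted sets; for the other settings the cause was not tested. Making the sums of both strains equal without TEF1 and TEF2 moved the median of all features to 0.19, against 0.01 as deposited, and gave 252 features higher. Under that scaling, under abundance centring and under quantile normalization the signs of all 23 shifted list medians stayed the same, while 17, 10 and 10 of the 17 higher lists and 1, 2 and 3 of the 6 lower ones stayed past 0.2. Among these 23, the signs that turned in other settings were those of the seripauperins, at -0.52 for the 1 member at least 95% unique, and of the middle and late sporulation genes, at -0.0404 with a mean of at least 10 FPKM. Outside the 23, many list medians below 0 turned with equal sums. Among them, translation factors, aminoacyl-tRNA synthetases and mitochondrial ribosomal proteins stood at 0.015, 0.012 and 0.003 in that setting. Ergosterol genes stood at 0.041, the vacuolar proton pump at 0.032 and the proteasome at 0.134. All 20 highest genes stayed at least 2-fold higher in every setting where they had a value, except that 18 did with a pseudocount of 5. Of the 12 lowest, 9 were at least 2-fold lower as deposited, 4 with a pseudocount of 5, 6 with upper-quartile scaling, 7 under abundance centring and 3 with equal sums. Abundance centring, the limit on unique sequence and the equal sums were chosen after seeing the data. Depth is unknown, so what it limits cannot be given, and no value has an error between replicates.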
